A study of Arabidopsis thaliana with 12 samples.

Results

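MIR472 and 7 genes of the CC-NBS-LRR class are described here, 8 of the 32420 gene loci for which reads of 21 nt and of 22 nt were tabulated. They were chosen by locus identifier: MIR472 (AT1G12294), RFL1 (AT1G12210), SUMM2 (AT1G12280), AT1G12290, AT1G15890, AT1G51480 (synonym RSG1), AT5G43730 (synonym RSG2) and AT5G43740. The material was whole seedlings of Arabidopsis thaliana, harvested at 10 days, from which small RNA libraries were sequenced. The 4 groups were dcl4-2 on MS-N, dcl4-2 on MS, Col-0 on MS-N and Col-0 on MS, with 3 libraries each. dcl4-2 is a mutant allele of DICER-LIKE 4 in the Col-0 background, Col-0 is the wild type, and MS-N is the MS growth medium lacking nitrogen. The libraries held 4515437 to 7270637 reads, of which 111687 to 203190 reads of 21 nt and 128141 to 203580 reads of 22 nt could be recovered per library at gene loci. MIR472 was listed at 0 and entered no test, and the other 7 genes passed the filter on low values at both lengths. Small RNA reads do not check the dcl4-2 label directly, since they do not measure the DCL4 transcript or protein.

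CC-NBS-LRR genes encode intracellular immune receptors with a coiled coil, a nucleotide-binding site and leucine-rich repeats. miR472 belongs to a microRNA family that pairs with the stretch coding for the P-loop of such receptors, and in Arabidopsis the cut target transcripts are copied by RDR6 into double-stranded RNA. DCL4 cuts such double strands into siRNAs of 21 nt, and DCL2 cuts them into siRNAs of 22 nt. SUMM2 watches over a MAP kinase cascade, RFL1 is a receptor gene of the same class, and the other 5 genes are annotated as CC-NBS-LRR disease resistance proteins.

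The mature strands of miR472 and its best match in each gene are shown because they are what the 8 loci share beyond the protein class. The mature sequences are those of RefSeq on TAIR10.1, 5′ to 3′, with the seed (bases 2 to 8) in capitals, and both lie on the minus strand, at chr1:4182143-4182164 for the 3p strand of 22 nt and chr1:4182266-4182286 for the 5p strand of 21 nt.
miR472-3p: uUUUUCCUacuccgcccauacc
miR472-5p: aUGGUCGAaguaggcaaaauc
The sites below are the 22 bases of each gene that pair best with miR472-3p, written 5′ to 3′ on the gene's strand with mismatched bases in capitals and G:U pairs left in lower case.
RFL1: gguauggguggaguaggCaaaa
SUMM2: ggCauggguggaguaggCaaaa
AT1G12290: ggCauggguggaguaggaaaaa
AT1G15890: gguaugggGggaguaggUaaaa
AT1G51480: gguaugggGggaguaggaaaaa
AT5G43730: gguaugggGggaAuaggaaaaa
AT5G43740: gguaugggGggaguaggaaaaa

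All 7 sites lie in exons and in coding sequence. In the order listed, their positions are chr1:4141494-4141515 (plus strand), chr1:4176992-4177013 (minus), chr1:4180683-4180704 (minus), chr1:5461946-5461967 (plus), chr1:19092853-19092874 (minus), chr5:17560801-17560822 (plus) and chr5:17566541-17566562 (plus). A pairing score was counted with 1 for a mismatch and 0.5 for a G:U pair, so a low score is a close match. AT1G51480 and AT5G43740 carried the identical site with a score of 1, RFL1 and AT1G12290 scored 1.5, AT1G15890 and AT5G43730 scored 2, and SUMM2 scored 2.5. The seed of miR472-3p paired in full in AT1G12290, AT1G51480, AT5G43730 and AT5G43740, and had 1 mismatch in RFL1, SUMM2 and AT1G15890. Of 27438 protein-coding genes scanned, 10 (0.0364%) had a score of at most 2, 6 of them among the 7, and 22 (0.0802%) had a score of at most 3, with all 7 among them. The 7 genes were grouped with MIR472 in advance, so these shares are no test of enrichment. A match is a description of the sequence only, and no cleavage was measured.

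**Figure D1:**
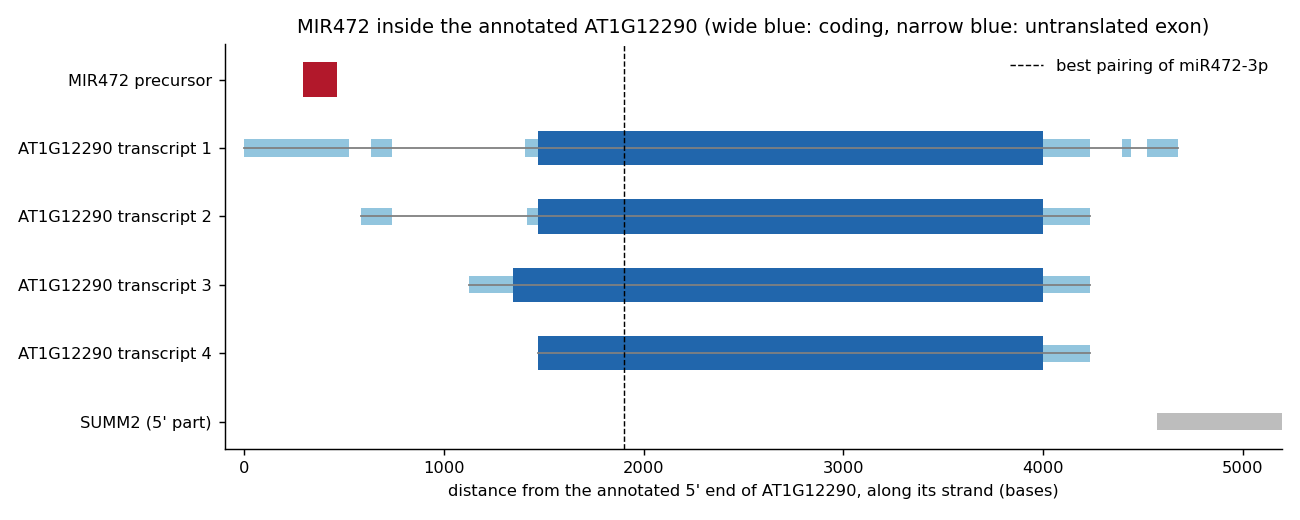
Map of MIR472 and AT1G12290, with the distance in bases from the annotated 5′ end of AT1G12290 on the horizontal axis and the MIR472 precursor, the 4 annotated AT1G12290 transcripts and the start of SUMM2 in rows. The MIR472 precursor lies in the first exon of 1 of the 4 transcripts, ahead of the coding sequence, and the dashed line marks the site shown above for AT1G12290.

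MIR472 itself was listed at 0 for both read lengths in all 4 groups, so no change could be measured for it. It lies at chr1:4182132-4182299 on the minus strand and is 168 bases long, wholly inside the annotated AT1G12290 (chr1:4177917-4182593, minus strand). There it falls in the first exon (4182069 to 4182593) of 1 of the 4 annotated AT1G12290 transcripts, 885 bases before the earliest annotated coding start of the gene. The 3′ end of the longest AT1G12290 transcript overlaps the annotated start of SUMM2, on the same strand, so reads there could belong to either gene. Whether reads of MIR472 were tabulated under AT1G12290 cannot be told apart in these tables, and the rule by which reads in overlapping genes were counted is not given in the sources used here. Of the 20 microRNA genes that lie inside another listed gene on the same strand, 6 (30%) were listed at 0 in every group and length, against 7 of 158 (4.43%) of the other microRNA genes. The 6 were MIR472, MIR834, MIR835, MIR840, MIR860 and MIR420, while MIR825, also inside another gene, was read.

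AT1G12290, the gene around MIR472, gave small RNA almost only of 21 nt and was the member that rose at that length in dcl4-2. It had 75.8, 69.4 and 82.5 normalized reads of 21 nt in the 3 libraries of dcl4-2 on MS-N and 154, 68.0 and 108 in dcl4-2 on MS, against 38.0, 38.3 and 39.7 in Col-0 on MS-N and 32.7, 35.4 and 40.3 in Col-0 on MS. A normalized read count is a library's number of reads over its size factor, which lay between 0.722 and 1.53, and libraries are numbered within a group by falling size factor. Both dcl4-2 groups stood above both Col-0 groups without overlap. In whole seedlings, a difference in the cells that make such reads and a difference in reads per cell cannot be told apart. AT1G12290 was 1.96-fold higher in dcl4-2 on MS-N (log2 change 0.95 ± 0.27 SE, adjusted p = 0.0292) and 3.04-fold higher on MS (1.51 ± 0.27, adjusted p = 1.73e-04), by limma on log2(value + 1) with Benjamini-Hochberg adjustment over 19386 loci.

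The call for AT1G12290 on MS-N was lost when any 1 of the 6 libraries compared was left out, with adjusted p between 0.0517 and 0.106. Without a variance trend in the fit neither call was made (adjusted p = 0.260 on MS-N and 0.184 on MS). When libraries were instead scaled to a common sum of microRNA reads, AT1G12290 stayed above Col-0 but was not called, with log2 changes of 0.10 (adjusted p = 0.898) on MS-N and 0.56 (adjusted p = 0.205) on MS. The sum held only microRNA genes whose reads could be recovered per library, so MIR161, for example, was not in it. That scaling moved the median log2 change of all loci at 21 nt to -0.33 on MS-N and -0.64 on MS, against 0.14 and -0.08 with the authors' scaling. Relative to these medians, AT1G12290 changed by 0.43 on MS-N and 1.205 on MS under the microRNA scaling, against 0.81 and 1.59 under the authors' scaling.

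In reads of 22 nt AT1G12290 had 6.69, 5.95 and 2.77 in dcl4-2 on MS-N and 1.02, 3.09 and 4.29 in dcl4-2 on MS, against 2.76, 0 and 1.51 in Col-0 on MS-N and 0.878, 1.02 and 0 in Col-0 on MS. These values come from 13, 8, 6 and 2 reads in the same group order, and neither genotype comparison passed (adjusted p = 0.163 on MS-N and 0.550 on MS). Its 22-nt share of 21- and 22-nt reads was 6.44% (95% exact interval 3.47 to 10.8) in dcl4-2 on MS-N and 2.61% (1.13 to 5.07) in dcl4-2 on MS, against 3.41% (1.26 to 7.27) in Col-0 on MS-N and 1.71% (0.208 to 6.04) in Col-0 on MS. All intervals of this kind cover counting error only.

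The other 6 genes, summed, had mostly 22-nt reads in dcl4-2 and mostly 21-nt reads in Col-0, whereas AT1G12290 had mostly 21-nt reads in both genotypes. Summed over these 6 genes, reads of 21 nt reached 151 ± 30.8 in dcl4-2 on MS-N and 156 ± 40.9 in dcl4-2 on MS, against 338 ± 16.98 in Col-0 on MS-N and 727 ± 43.5 in Col-0 on MS (SD, n = 3 libraries each). Their summed reads of 22 nt reached 678 ± 135 in dcl4-2 on MS-N and 847 ± 127 in dcl4-2 on MS, against 95.2 ± 13.0 in Col-0 on MS-N and 130 ± 15.4 in Col-0 on MS. The 3 genes AT5G43740, AT5G43730 and AT1G51480 supplied nearly all of these reads. With AT1G12290 added, the 21-nt sums were 227 ± 37.0 and 266 ± 61.8 in dcl4-2 on MS-N and MS. In Col-0 they were 377 ± 17.2 and 763 ± 39.7 on the same media. The 22-nt sums of all 7 genes were 684 ± 133 and 850 ± 128 in dcl4-2, against 96.6 ± 13.3 and 130 ± 14.9 in Col-0. Per kilobase of gene in dcl4-2 on MS, 22-nt reads were 126 at AT5G43740, 44.6 at AT5G43730 and 31.7 at AT1G51480, and between 0.562 at RFL1 and 1.297 at AT1G15890 for the other 4 of the 7 genes. In Col-0 on MS the 21-nt reads per kilobase were 126 at AT5G43740, 25.2 at AT5G43730, 17.7 at AT1G51480, 7.73 at AT1G12290, 2.26 at AT1G15890, 0.432 at RFL1 and 0.365 at SUMM2. In that order the spreads of RFL1 and SUMM2 overlap.

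**Figure D2:**
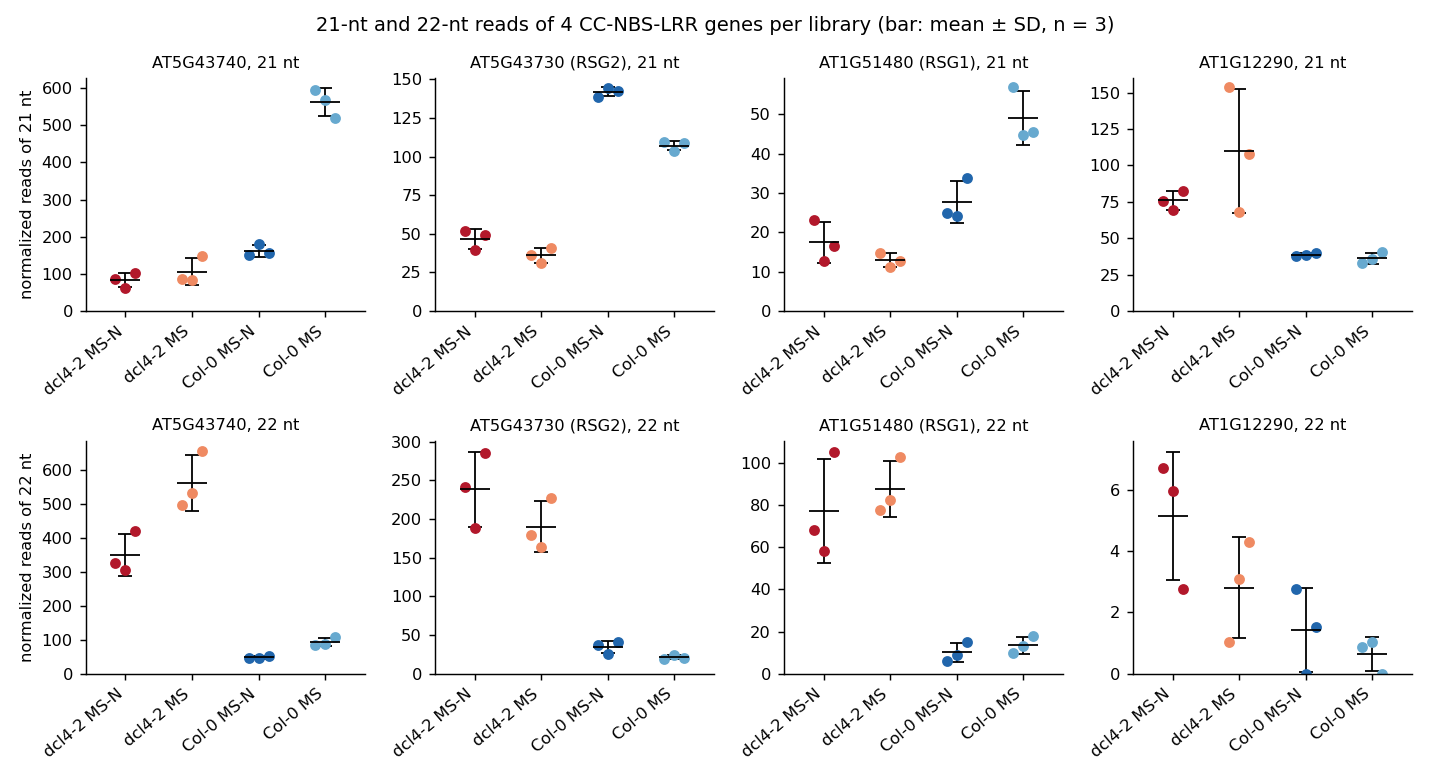
Normalized reads of 21 nt (top) and 22 nt (bottom) at 4 CC-NBS-LRR genes, by group on the horizontal axis. Points are the 3 libraries of a group, numbered separately at each length, and bars are the mean ± SD; in dcl4-2 the libraries of AT5G43740, AT5G43730 and AT1G51480 lie lower at 21 nt and higher at 22 nt, while those of AT1G12290 lie higher at 21 nt.

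The comparison of dcl4-2 with Col-0 shows how the 2 size classes of each gene differ when DCL4 is mutated. At 21 nt on MS, 3 of the 7 genes fell in dcl4-2 and 1, AT1G12290, rose, where 0.774% of all loci tested fell and 0.5% rose. On MS-N, 2 fell and AT1G12290 rose, where 2.26% of all loci fell and 2.32% rose. At 22 nt none of the 7 fell and 3 rose on MS-N, where 2.12% of 20148 loci fell and 4.16% rose, and none fell and 3 rose on MS, where 0.581% fell and 0.869% rose. Counted by libraries instead, 3 of the 7 at 21 nt lay below Col-0 without overlap on MS-N and 1 above it, where 9.49% and 14.3% of all loci did. On MS it was 4 below and 1 above, where 6.93% and 5.12% of all loci did. The median log2 change of the 7 genes at 21 nt was -0.66 on MS-N and -1.56 on MS, beside medians of 0.14 and -0.08 over all loci. At 22 nt the median of the 7 genes was 1.53 on MS-N and 1.26 on MS, beside 0.32 and -0.01 over all loci. Both 22-nt medians are the values of RFL1, which had 12 reads against 2 on MS-N and 6 against 1 on MS.

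AT5G43740 had the most reads. At 21 nt it had 85.7, 62.5 and 102 in dcl4-2 on MS-N and 85.8, 83.7 and 147 in dcl4-2 on MS, against 151, 179 and 155 in Col-0 on MS-N and 595, 568 and 521 in Col-0 on MS. Each dcl4-2 group lay below Col-0 on the same medium without overlap, and Col-0 on MS stood far above the other groups. At 22 nt it had 326, 305 and 421 in dcl4-2 on MS-N and 497, 532 and 655 in dcl4-2 on MS, against 45.6, 46.3 and 52.1 in Col-0 on MS-N and 83.4, 87.6 and 107 in Col-0 on MS. Here every dcl4-2 library exceeded every Col-0 library. The 21-nt reads of AT5G43740 were 1.94-fold lower in dcl4-2 on MS-N (log2 change -0.97 ± 0.22 SE, adjusted p = 0.00352, limma) and 5.32-fold lower on MS (-2.45 ± 0.22, adjusted p = 4.82e-13). Its 22-nt reads were 7.30-fold higher on MS-N (2.83 ± 0.17, adjusted p = 2.69e-17) and 6.06-fold higher on MS (2.58 ± 0.17, adjusted p = 9.30e-16). The fall at 21 nt on MS-N had an adjusted p of 0.0624 once the second dcl4-2 library of that medium was left out, and of 0.248 without a variance trend.

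AT5G43730, which ends 262 bases before AT5G43740 begins on chromosome 5, showed the same directions. Its 21-nt reads were 51.6, 39.3 and 49.5 in dcl4-2 on MS-N and 36.0, 31.2 and 40.6 in dcl4-2 on MS, against 139, 145 and 143 in Col-0 on MS-N and 109, 104 and 109 in Col-0 on MS. Its 22-nt reads were 242, 188 and 285 in dcl4-2 on MS-N and 179, 164 and 227 in dcl4-2 on MS, against 36.6, 25.6 and 40.7 in Col-0 on MS-N and 19.3, 24.4 and 19.9 in Col-0 on MS. Neither length showed any overlap between the genotypes. The 21-nt reads fell 3.03-fold in dcl4-2 on MS-N (log2 change -1.59 ± 0.25 SE, adjusted p = 6.58e-06, limma) and 2.98-fold on MS (-1.56 ± 0.25, adjusted p = 1.37e-05). Both of these calls were lost without a variance trend (adjusted p = 0.0571 on MS-N and 0.138 on MS). The 22-nt reads rose 6.95-fold on MS-N (2.77 ± 0.22, adjusted p = 6.02e-13) and 8.96-fold on MS (3.10 ± 0.22, adjusted p = 1.21e-14).

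AT1G51480, on chromosome 1, had the same site for miR472-3p as AT5G43740. At 21 nt it had 23.1, 12.7 and 16.5 reads in dcl4-2 on MS-N and 14.8, 11.2 and 12.7 in dcl4-2 on MS, against 24.9, 24.2 and 33.9 in Col-0 on MS-N and 56.8, 44.8 and 45.5 in Col-0 on MS. At 22 nt it had 68.0, 58.3 and 105 in dcl4-2 on MS-N and 77.8, 82.3 and 103 in dcl4-2 on MS, against 6.22, 8.99 and 15.1 in Col-0 on MS-N and 9.66, 13.2 and 17.8 in Col-0 on MS. The genotypes did not overlap at either length on either medium, although at 21 nt on MS-N the groups nearly met. The 21-nt fall passed on MS (3.80-fold, log2 change -1.85 ± 0.33 SE, adjusted p = 1.41e-04, limma) and not on MS-N (-0.66 ± 0.33, adjusted p = 0.256), and without a variance trend the adjusted p on MS was 0.0748. The 22-nt reads rose 7.65-fold on MS-N (2.85 ± 0.30, adjusted p = 1.82e-09) and 6.47-fold on MS (2.63 ± 0.30, adjusted p = 2.17e-08).

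With trimmed-mean scaling and with microRNA scaling, AT1G51480 joined the genes that fell at 21 nt on MS-N and AT1G12290 left those that rose, which made 3 lower and none higher. On MS the trimmed-mean scaling gave 4 lower and 1 higher and the microRNA scaling 4 lower and none higher, AT1G15890 being the gene added. The counts at 22 nt were 3 higher on each medium under both.

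**Figure D3:**
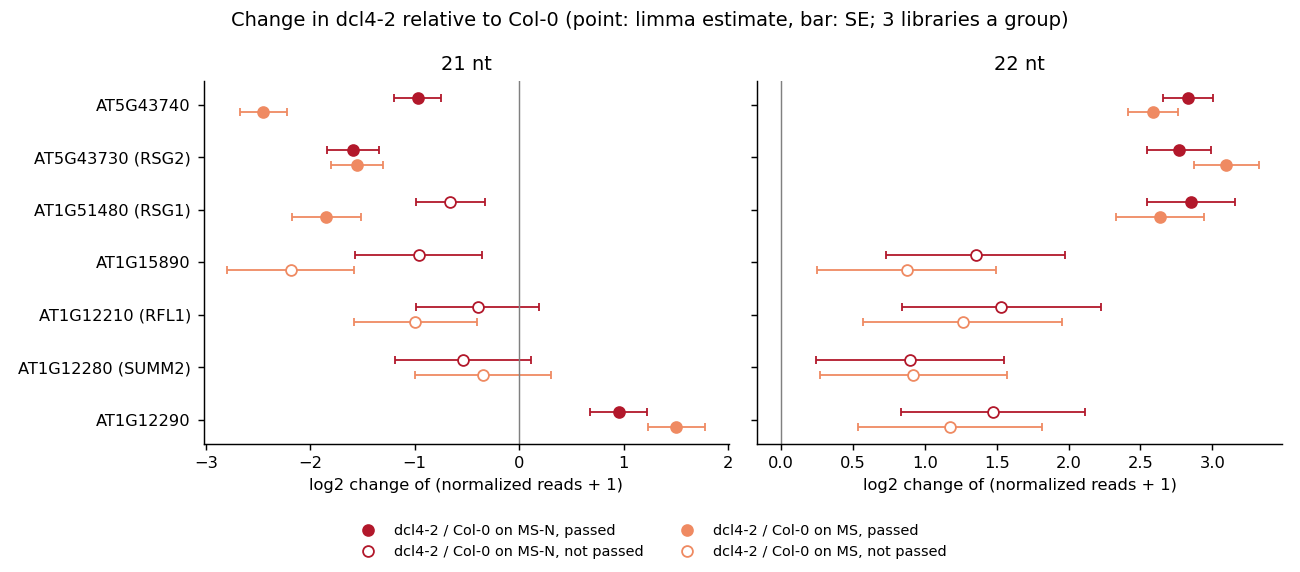
Log2 change in dcl4-2 relative to Col-0 for the 7 CC-NBS-LRR genes at 21 nt (left) and 22 nt (right), on MS-N and on MS. Points are limma estimates on log2(normalized reads + 1), bars are SE, and filled points passed an adjusted p of 0.05; at 22 nt all 14 estimates lie above 0.

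AT1G15890, RFL1 and SUMM2 gave few reads. AT1G15890 had 1.10, 0 and 2.75 reads of 21 nt in dcl4-2 on MS-N and 0, 1.12 and 1.16 in dcl4-2 on MS, against 2.62, 2.02 and 4.33 in Col-0 on MS-N and 5.16, 7.46 and 7.23 in Col-0 on MS. On MS the groups did not overlap, and the log2 change of -2.18 ± 0.61 had an adjusted p of 0.0509, with adjusted p between 0.00108 and 0.270 under the alternatives run. RFL1 had 12, 6, 2 and 1 reads of 22 nt and 1, 1, 4 and 5 of 21 nt in dcl4-2 on MS-N, dcl4-2 on MS, Col-0 on MS-N and Col-0 on MS. Its second dcl4-2 library on MS-N had 0 reads of 22 nt, and leaving that library out gave the change on MS-N an adjusted p of 0.0236 in place of 0.183. SUMM2 had 8, 8, 5 and 3 reads of 22 nt and 4, 1, 12 and 4 of 21 nt in the same group order, and passed in no comparison. At 22 nt all 7 genes had a log2 change above 0 on both media, and the groups did not overlap for 5 of 7 on MS-N and 6 of 7 on MS, where 17.9% and 5.82% of all loci were higher in dcl4-2 without overlap.

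The authors' deposited table, which covers this genotype comparison on MS-N, gave adjusted p-values under 0.05 for the same genes as limma did there. In the authors' deposited table the log2 ratios of dcl4-2 over Col-0 on MS-N at 22 nt were 2.87 for AT5G43740, 2.80 for AT5G43730 and 2.94 for AT1G51480. At 21 nt the authors' deposited table had -0.96 for AT5G43740, -1.60 for AT5G43730 and 0.97 for AT1G12290.

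The shift between the size classes can be read as the share of 22 nt among reads of both lengths, pooled over the 3 libraries of a group. For AT5G43740 it was 80.5% (95% exact interval 78.0 to 82.9) in dcl4-2 on MS-N and 85.1% (83.4 to 86.6) in dcl4-2 on MS, against 22.1% (19.4 to 24.9) in Col-0 on MS-N and 13.6% (12.1 to 15.1) in Col-0 on MS. For AT5G43730 the shares were 83.2% and 84.9% in dcl4-2 on MS-N and MS, against 18.7% and 15.9% in Col-0 on MS-N and MS. For AT1G51480 they were 80.9% and 87.8% in dcl4-2, against 25.8% and 20.6% in Col-0, on the same media. Within dcl4-2 on MS-N the 3 shares lay between 80.5% and 83.2%. In Col-0 on MS the 95% exact interval of AT1G51480 (15.2 to 26.9) lay just above that of AT5G43740. The spread between libraries is not in these intervals, so whether these 2 shares differ was not tested. Over the 6 genes without AT1G12290, the shares were 81.5% (1649 of 2024 reads) and 85.3% (2436 of 2855) in dcl4-2 on MS-N and MS, against 21.2% (400 of 1887) and 14.5% (397 of 2733) in Col-0 on MS-N and MS. The median share over all other loci with at least 30 reads was 59.6% and 64.9% in dcl4-2 on MS-N and MS, and 60.3% and 60.6% in Col-0 on MS-N and MS. No test across libraries was made, since libraries could not be matched between the tables of the 2 lengths.

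**Figure D4:**
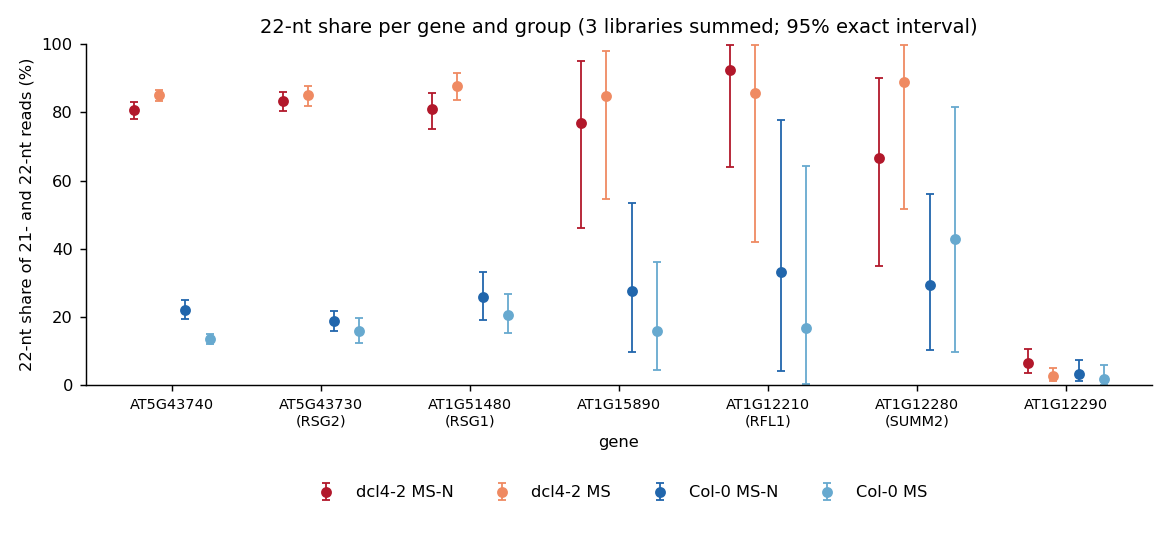
Share of 22-nt reads among 21- and 22-nt reads (%) for each of the 7 genes and 4 groups, with the 3 libraries of a group summed and 95% exact intervals for counting error. For 6 genes the dcl4-2 points lie between 66.7% and 92.3% and the Col-0 points between 13.6% and 42.9%, while AT1G12290 stays between 1.71% and 6.44% in all groups.

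Nitrogen-free medium was compared with MS within each genotype. AT5G43740 was the gene that changed, and it fell on MS-N. In Col-0 its 21-nt reads were 3.47-fold lower on MS-N (log2 change -1.79 ± 0.22 SE, adjusted p = 4.52e-09, limma), the only 1 of the 7 genes to pass where 3.86% of all loci fell and 2.08% rose. Its 22-nt reads were 1.93-fold lower on MS-N in Col-0 (-0.93 ± 0.17, adjusted p = 1.31e-04), where 4.56% of all loci fell and 1.81% rose. They were 1.60-fold lower in dcl4-2 (-0.68 ± 0.17, adjusted p = 0.00465), where 5.77% fell and 9.9% rose, again as 1 of 7. AT5G43740 was also the 1 of 7 genes whose 22-nt reads in dcl4-2 lay lower on MS-N without overlap, where 8.4% of all loci did. In dcl4-2 at 21 nt none of the 7 genes passed limma's adjusted threshold, where 4.66% of all loci fell and 8.47% rose. None of the 7 had an unadjusted p under 0.05 either, and the share of all loci at that level was not counted. Both 22-nt calls of AT5G43740 were lost without a variance trend (adjusted p = 0.208 in Col-0 and 0.243 in dcl4-2). The change of AT5G43740 in dcl4-2 at 21 nt was -0.32 ± 0.22 (adjusted p = 0.372).

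The interaction of genotype and medium for AT5G43740 at 21 nt was 1.48 ± 0.31 on the log2 scale (adjusted p = 0.0145, limma), so the fall on MS-N was smaller in dcl4-2 than in Col-0, and this was 1 of 7 genes where 0.382% of all loci had a positive interaction that passed. This call was lost without library 3 of dcl4-2 on MS-N, Col-0 libraries 1 or 3 of that medium, or Col-0 libraries 2 or 3 of MS, with adjusted p between 0.0516 and 0.0792, and without a variance trend (0.310). At 22 nt no interaction of the 7 genes passed limma's adjusted threshold, where 2.11% of all loci did. None of the 7 had an unadjusted p under 0.05 either, and the share of all loci at that level was not counted.

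AT5G43730 and AT1G51480 did not pass in any comparison of the media. In Col-0, AT5G43730 was higher on MS-N in every library at both lengths, with log2 changes of 0.40 ± 0.25 at 21 nt (adjusted p = 0.434) and 0.65 ± 0.22 at 22 nt (adjusted p = 0.0733). AT1G51480 was lower on MS-N in Col-0 at 21 nt in every library (-0.81 ± 0.33, adjusted p = 0.164). In Col-0 at 21 nt, 3 of the 7 genes lay lower on MS-N without overlap and 1 higher, where 11.6% and 11.7% of all loci did, and at 22 nt 1 lay lower and 1 higher, where 12.6% and 11.1% did. AT1G12290 in Col-0 differed by 0.10 ± 0.27 at 21 nt between MS-N and MS (adjusted p = 0.912), with overlapping groups. For the authors' comparison of Col-0 on MS-N over MS, the authors' deposited table had log2 ratios for AT5G43740 of -1.80 at 21 nt and -0.95 at 22 nt, both with adjusted p-values under 0.05.

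The tandem genes AT5G43740 and AT5G43730 stood in different proportions on the 2 media. This ratio was chosen after its values were seen and is given without a test. Within a library, AT5G43740 had 1.77 ± 0.252 times the 21-nt reads of AT5G43730 in dcl4-2 on MS-N and 2.90 ± 0.651 times in dcl4-2 on MS, against 1.14 ± 0.0903 times in Col-0 on MS-N and 5.25 ± 0.386 times in Col-0 on MS (SD, n = 3). For 22-nt reads the ratios were 1.48 ± 0.137 in dcl4-2 on MS-N and 2.97 ± 0.251 in dcl4-2 on MS, against 1.44 ± 0.318 in Col-0 on MS-N and 4.42 ± 0.897 in Col-0 on MS. Since both reads come from the same library, the scaling of libraries does not enter this ratio. Of the 21-base words of AT5G43730, 17.3% also occur in AT5G43740 and 14.7% of those of AT1G51480 occur in AT5G43730, so some reads of the 3 genes could stem from any of them; 22.5 to 24.2% of their words occur elsewhere in the genome, against 0.584 to 3.68% for the other 4 genes. AT5G43730 is also overlapped over 4045 bases on the same strand by the annotated AT5G43725, which was not analysed here.

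**Figure D5:**
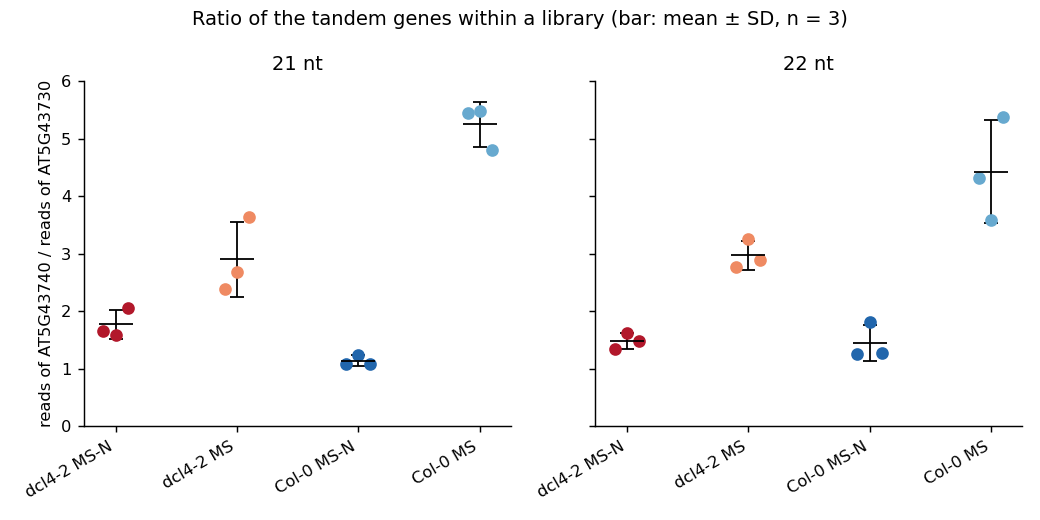
Ratio of the reads of AT5G43740 to those of AT5G43730 within each library, at 21 nt (left) and 22 nt (right), by group. Points are libraries and bars mean ± SD of 3; at both lengths and in both genotypes every library on MS-N lies below every library on MS.

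Levels of other loci that ran most like AT5G43740 over the 12 libraries are given as a description, by Pearson's r of log2(value + 1), with libraries that share genotype, medium and depth. At 21 nt the closest of 3098 loci were LRX3 (r = 0.93), AT5G05250 (0.92), RAV2 (0.91), the chloroplast gene ATCG00360 (0.90) and AT2G16030 (0.90), and AT1G51480 ranked 13 (0.89) and AT5G43730 170 (0.66). At 22 nt, among 4289 loci, AT1G51480 ranked first (0.97), followed by AT1G64583 (0.97), DMT2 (0.97), EMB2654 (0.95), MYB28 (0.95) and MIR843 (0.94), with AT5G43730 at rank 15 (0.89). AT1G12290 had r = -0.69 with AT5G43740 at 21 nt. MIR472, at 0 throughout, has no such pattern.

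A further 181 genes were listed because their annotation text names NBS-LRR, NB-ARC, a disease resistance protein or a TIR domain. The text match also took in genes of other kinds, such as SGT1A, SGT1B and RLP52. Of the 181, 122 at 21 nt and 124 at 22 nt had enough reads. In dcl4-2 against Col-0 at 21 nt, 2 of 122 fell and 2 rose on MS-N, where 2.26% and 2.32% of all loci did, and 2 fell on MS, where 0.774% of all loci did. At 22 nt 13 of 124 rose on MS-N, where 4.16% of all loci did, and on MS 3 rose and 1 fell, where 0.869% and 0.581% did. AT5G38850 and AT5G63020 fell at 21 nt and rose at 22 nt on MS-N, and AT3G04210 rose at both lengths there (log2 changes 2.06 and 2.78, adjusted p = 0.0347 and 0.00243, limma). AT5G38850 averaged 29.7 ± 8.32 and 244 ± 42.8 reads of 21 nt in dcl4-2 on MS-N and MS, against 51.2 ± 4.16 and 753 ± 39.2 in Col-0 on MS-N and MS, and 154 ± 19.2 and 1080.2 ± 100.1 reads of 22 nt in dcl4-2 on MS-N and MS, against 14.1 ± 5.27 and 182 ± 10.6 in Col-0 on MS-N and MS (SD, n = 3). Its fall on MS-N reached a log2 change of -3.02 in dcl4-2 and -3.85 in Col-0 at 21 nt (adjusted p = 1.36e-16 and 2.99e-21, limma), beside -0.32 and -1.79 for AT5G43740. Between the media in dcl4-2, 2 of the 122 genes fell and 8 rose at 21 nt, where 4.66% and 8.47% of all loci did, and 4 of 124 fell and 19 rose at 22 nt, where 5.77% and 9.9% did. In Col-0, 9 fell at 21 nt, where 3.86% of all loci did, and 6 fell and 3 rose at 22 nt, where 4.56% and 1.81% did.

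AT5G63020 was also 1 of 15 further genes with a pairing score for miR472-3p of at most 3, a list drawn up after the values were seen. Its own score was 1.5. Reads of 21 nt at AT5G63020 were 1.10, 3.47 and 0 in dcl4-2 on MS-N and 18.0, 17.8 and 19.7 in dcl4-2 on MS, against 4.58, 5.38 and 5.05 in Col-0 on MS-N and 42.2, 50.4 and 46.5 in Col-0 on MS. Reads of 22 nt were 6.69, 14.3 and 16.6 in dcl4-2 on MS-N and 51.2, 54.5 and 68.6 in dcl4-2 on MS, against 2.76, 1.38 and 2.26 in Col-0 on MS-N and 11.4, 20.4 and 9.41 in Col-0 on MS. Within each medium the genotypes, and within each genotype the media, were thus separated without overlap at both lengths. At 21 nt, 9.49% of all loci on MS-N and 6.93% on MS lay lower in dcl4-2 without overlap. At 22 nt, 17.9% on MS-N and 5.82% on MS lay higher. Between the media in Col-0, 11.6% of all loci at 21 nt and 12.6% at 22 nt lay lower on MS-N without overlap. In dcl4-2 8.4% did so at 22 nt, and the share at 21 nt is not given here. Of the 15 genes, 11 were measured. In dcl4-2 against Col-0 at 21 nt, AT5G63020 was the 1 of 11 that fell on MS-N (adjusted p = 0.0304, limma), where 2.26% of all loci fell. On MS, AT1G63360 was the 1 of 11 that fell (adjusted p = 0.0467, limma), where 0.774% of all loci did. AT5G63020 did not pass there. At 22 nt 3 of 11 rose on MS-N and 1 on MS, where 4.16% and 0.869% of all loci did. On MS-N against MS at 21 nt, 1 of 11 fell in dcl4-2 and 3 in Col-0, where 4.66% and 3.86% of all loci did. At 22 nt 3 fell and 1 rose in each genotype. There 5.77% of all loci fell and 9.9% rose in dcl4-2, and 4.56% fell and 1.81% rose in Col-0. AT1G63360 and AT1G62630, both with a score of 2, were among those that fell on MS-N in Col-0, by -3.02 and -2.87 at 21 nt on the log2 scale.

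The genes around MIR472 on the chromosome were SUMM2, AT1G12290, AT1G12300 and 1 further locus. AT1G12300, which lies 416 bases beyond AT1G12290, had 6.59, 4.63 and 6.88 reads of 21 nt in dcl4-2 on MS-N and 4.24, 8.92 and 10.4 in dcl4-2 on MS, against 70.1, 98.1 and 81.5 in Col-0 on MS-N and 73.1, 65.3 and 46.5 in Col-0 on MS. At 22 nt it had 52.4, 55.9 and 49.9 in dcl4-2 on MS-N and 38.9, 30.9 and 36.4 in dcl4-2 on MS, against 22.1, 20.0 and 21.9 in Col-0 on MS-N and 8.78, 10.2 and 24.0 in Col-0 on MS. Its genotype changes, -3.58 ± 0.34 on MS-N and -2.87 ± 0.34 on MS at 21 nt and 1.27 ± 0.31 and 1.37 ± 0.31 at 22 nt, all passed (adjusted p = 3.77e-12, 7.70e-09, 0.00671 and 0.00553, limma). AT1G12290 next to it thus moved the other way at 21 nt. None of these loci, 4 measured at 21 nt and 3 at 22 nt, passed limma's adjusted threshold between the media. At an unadjusted p under 0.05 there were 0 in dcl4-2 at either length. In Col-0 there were 0 at 21 nt and 1 at 22 nt, and the share of all loci at that level was not counted.

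Of 10 microRNA genes known for 22-nt microRNAs or as triggers of secondary siRNAs, 7 were measured at 21 nt. MIR161, MIR173 and MIR393B were not, since their many reads could not be recovered per library. In dcl4-2 against Col-0 at 21 nt, 7 rose on MS-N and 6 on MS, where 2.32% and 0.5% of all loci did. The summed 21-nt reads of the microRNA genes whose reads could be recovered per library were also higher in dcl4-2. Relative to the geometric mean over the 12 libraries, this sum stood at 1.22 to 1.53, against 0.673 to 0.816 in Col-0. MIR161, MIR173 and MIR393B are not in it. Whether the 10 genes differ from other microRNA genes was not tested. At 22 nt 9 were measured, without MIR161, and 5 rose on MS-N, where 4.16% of all loci did. On MS none passed limma's adjusted threshold, where 0.869% of all loci rose. There 4 had an unadjusted p under 0.05, and the share of all loci at that level was not counted. Examples are MIR390A, the trigger of TAS3 siRNAs, with log2 changes of 1.31 on MS-N and 1.77 on MS at 21 nt, and MIR168A, which targets AGO1, with 0.99 and 0.92. The change of AT1G12290 at 21 nt, 0.95 and 1.51, lay in the same range, and whether microRNA reads take part in it was not tested. MIR825, a microRNA known to target TIR-NBS-LRR genes, fell on MS-N at 21 nt by 1.39 in dcl4-2 and by 1.34 in Col-0 on the log2 scale. Between the media at 21 nt, 1 of the 7 fell in each genotype, where 4.66% of all loci fell in dcl4-2 and 3.86% in Col-0. At that length 3 rose in dcl4-2 and 4 in Col-0, where 8.47% and 2.08% of all loci rose. By deposited means at 21 nt, without a test, MIR393B was lower on MS-N in both genotypes, and MIR173 and MIR161 were higher. At 22 nt 4 of the 9 rose in dcl4-2 and 3 in Col-0, where 9.9% and 1.81% rose.

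Small RNA at 12 genes for making secondary siRNAs was measured at 8 at each length, and these reads say nothing of the level of the messenger RNA. In dcl4-2 against Col-0, 1 of the 8 fell on MS-N and 2 on MS at 21 nt, where 2.26% and 0.774% of all loci did, and 3 rose on MS-N and 1 on MS at 22 nt, where 4.16% and 0.869% did. AGO1, the main microRNA effector and a target of MIR168A, was among them at both lengths, lower at 21 nt and higher at 22 nt, with log2 changes of -1.50 and -2.11 at 21 nt and 1.81 and 1.46 at 22 nt on MS-N and MS. In dcl4-2 on MS-N against MS, AGO1 rose by 1.26 at 21 nt and 0.99 at 22 nt on the log2 scale, where AT5G43740 fell at 22 nt. It was the 1 of 8 that rose there at 21 nt, where 8.47% of all loci rose. At 22 nt it was 1 of 5 that rose, where 9.9% of all loci did. In Col-0 none of the 8 passed limma's adjusted threshold, and 2 at each length had an unadjusted p under 0.05. The share of all loci at that level was not counted.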

How the data were processed

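Per the labels, total RNA of whole seedlings was made into small RNA libraries, 3 for each of 4 groups. The submitters' processing notes name Bowtie 1.2.2, SAMtools 1.9 and the build TAIR10, and the counting rule is not given in the sources used here. The deposited locus tables hold a signal per group, called TPM in the header, which from its values is the mean of 3 libraries' whole reads divided by size factors of 0.722 to 1.53. The authors also deposited log2 ratios with a p-value and an adjusted p-value for 4 comparisons. A table of feature classes in rpm, scaled by the authors, served only for library totals.

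Each group mean was split into the whole reads of its 3 libraries, which succeeded for all 8 members described, and all SDs and tests rest on this. In a check on simulated data, 20710 means at 21 nt and 20625 at 22 nt were split correctly and 0 wrongly. The check covered Col-0 on MS only, at loci already split, and reused the same size factors. It therefore does not test those size factors or the other groups. The split left out 33 loci at 21 nt and 12 at 22 nt, which are abundant and hold 71.3 to 88.4% of the 21-nt and 17.4 to 46.8% of the 22-nt column sums. The fit used log2 of the value plus 1 in limma 3.58.1 (R 4.3.3), taking all 12 libraries together with a variance trend, after a filter of a value of at least 1 in 3 libraries. A log2 change on this scale understates that of loci with few reads, and folds are ratios of group means. The threshold was an adjusted p of 0.05 over all loci kept. On simulated data of dcl4-2 against Col-0 on MS with 200 loci changed 4-fold, limma recovered 146 with 4 false calls at 21 nt (19496 loci) and 158 with 8 at 22 nt (20246 loci). The labels call the libraries replicates without saying that the seedlings came from separate cultures, so p-values measure the spread between these libraries.

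Sequences and positions come from RefSeq on TAIR10.1. These 8 members are named, and 1 further member of the rule is not reported here. Of other genes, the 5 loci most like the member with the most reads are named, and for each list at most the 5 with the smallest adjusted p per comparison. The members and lists were chosen with earlier results of these data known. Alternatives were another pseudocount, no filter, no variance trend, only 2 groups in the fit, 2 other scalings and leaving out each library.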

Additional observations from a re-analysis of the deposited data

Results flagged for a closer look

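The change of AT5G43740 between MS-N and MS at 21 nt differed between the genotypes by a test of the difference itself. The interaction was 1.476 on the log2 scale (limma, adjusted p = 0.0145), with changes of -0.32 in dcl4-2 and -1.79 in Col-0. All 3 libraries of Col-0 on MS-N lay below all 3 of Col-0 on MS, while in dcl4-2 the media overlapped. At 22 nt, where both genotypes fell on MS-N, the interaction was 0.25 and did not pass (adjusted p = 0.651). The call at 21 nt was lost in several of the alternatives given below.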

How the results depend on the processing

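The direction of AT5G43740, AT5G43730, AT1G51480 and AT1G12290 between the genotypes at 21 nt was kept under every alternative run, and so was that of the first 3 at 22 nt, where the count of genes called was 3 on MS and 3 to 4 on MS-N under all of them. Without a variance trend the count called at 21 nt was 0 on MS-N (3 with the trend), 1 on MS (4), that of AT5G43740, and 0 for the interaction (1), and at 22 nt 0 for MS-N against MS in dcl4-2 (1) and 0 in Col-0 (1). The interaction count at 21 nt was also 0 with a pseudocount of 0.1 and 0 with trimmed-mean scaling, with adjusted p of 0.0909 and 0.0593 for AT5G43740. With only the 2 groups of the comparison in the fit, 2 genes were called at 21 nt for MS-N against MS in Col-0 (1), AT1G51480 being added (adjusted p = 0.0278), and with microRNA scaling 2 at 22 nt (1), AT5G43730 being added (adjusted p = 0.0170). Leaving out 1 library gave 1 to 3 genes at 21 nt on MS-N between the genotypes, 4 to 5 on MS, 0 to 1 for the interaction, and 1 to 2 at 22 nt for MS-N against MS in Col-0. In that comparison AT5G43730 was called without the third dcl4-2 library on MS (adjusted p = 0.0369) or the second Col-0 library on MS-N (0.0376). The change of AT5G43730 at 22 nt between MS-N and MS in dcl4-2, which was not called, turned to -0.0485 with microRNA scaling, against 0.32. Among values of single genes, 517 kept direction and call, 13 gained a call, 26 lost it and 1 turned. The 22-nt shares taken from the deposited means differed by less than their counting intervals. The cause of these differences was not tested. The edgeR test listed beforehand was not run, since the deposited values are not counts. No paired analysis was possible because the recovered libraries carry no replicate number. Genes with under about 10 reads a group allow no firm statement at this depth, and among 39 such comparisons and interactions, 43 of 689 values under other settings had the other sign.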
